A study of Mus musculus with 4 samples.

Results

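The alpha and beta globin loci were examined in the population-based replication timing profile of F121-9 cells, a diploid hybrid cas/129 mouse embryonic stem cell (mESC) line grown in N2B27 with 2i and LIF. Nascent DNA was labeled with BrdU, cells were sorted by DNA content into an early and a late S-phase fraction, and there were 2 libraries of each fraction, 4 in all. The deposited value, RT, is the log2 of early over late reads, each scaled to its library total, for each 50 kb bin, so RT above 0 means that a bin had the higher share of reads in the early fraction. The 7 genes *Hbb-bt*, *Hbb-bs*, *Hbb-bh1*, *Hbb-y*, *Hba-x*, *Hba-a1* and *Hba-a2* were located by name in GENCODE vM21 on mm10, and the bins that overlap their gene bodies were taken with the bins within 1 Mb on each side. The 7 genes fell into 3 bins, 1 for the alpha and 2 for the beta cluster. With their flanks, 41 bins made up the alpha window and 42 the beta window, 83 of the 51153 bins of the autosomes and X. Each bin has a single value that combines the libraries and both homologs. No error between replicates and no test between fractions or loci can therefore be given, and the number of reads behind a bin is unknown. The deviation of bins from the mean of their neighbors, over 20594 bins where the slope of RT was at or under 2.5 log2 per Mb, gave a noise SD of 0.16 per bin, or 0.22 for a difference of 2 bins, which covers scatter along the chromosome and not differences between cultures. The profile is of DNA, so the labeled cell type could not be checked against marker genes.

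Hemoglobin carries oxygen in red cells as a tetramer of alpha-like and beta-like chains, and each kind of chain is encoded by its own gene cluster. In the mouse, *Hba-x* (zeta), *Hbb-y* (epsilon y) and *Hbb-bh1* encode chains of the primitive, embryonic red cells, while *Hba-a1*, *Hba-a2*, *Hbb-bs* and *Hbb-bt* encode the adult chains. All are known for their expression in red cell precursors. The beta cluster is a textbook case of a locus that replicates late in cells that do not make red cells and early in those that do, whereas the alpha cluster lies among widely expressed genes. Distant enhancers act on both clusters, those of alpha in and near introns of the neighbor *Nprl3*, and those of beta in the locus control region upstream of *Hbb-y*.

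The promoters show what the clusters share and how they differ at the level of sequence. An adult gene of each cluster and the embryonic *Hbb-y* are given here, from the 250 bases before the RefSeq gene start (GRCm38.p6), 5′ to 3′ on the gene's strand, each as its longest stretch outside what GENCODE counts as exonic untranslated sequence. Capitals mark every CCAAT box, CACCC box, TATAA box and GATAA core found on either strand, where hits may overlap. The CCAAT box and the TATAA box are general promoter elements, the CACCC box is bound by Klf1 and its relatives, and the GATAA core is bound by GATA factors. *Hba-a2* is shown at chr11:32296242-32296488 on the plus strand, the 83 bases of *Hbb-bs* next to the gene start at chr7:103827929-103828011 on the minus strand, and *Hbb-y* at chr7:103853217-103853457 on the minus strand.
Hba-a2: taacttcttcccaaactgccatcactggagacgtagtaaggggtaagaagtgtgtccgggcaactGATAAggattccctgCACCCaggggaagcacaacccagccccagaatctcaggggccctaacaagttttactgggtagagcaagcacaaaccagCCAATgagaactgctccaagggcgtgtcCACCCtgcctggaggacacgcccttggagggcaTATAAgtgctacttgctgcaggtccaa
Hbb-bs: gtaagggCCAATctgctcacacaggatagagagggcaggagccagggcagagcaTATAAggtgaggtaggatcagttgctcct
Hbb-y: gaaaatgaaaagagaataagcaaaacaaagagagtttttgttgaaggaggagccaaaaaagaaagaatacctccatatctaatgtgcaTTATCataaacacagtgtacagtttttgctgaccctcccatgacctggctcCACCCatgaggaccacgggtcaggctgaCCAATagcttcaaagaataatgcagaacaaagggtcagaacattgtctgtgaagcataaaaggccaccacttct
The stretch shown for *Hbb-bs* lies inside its GENCODE gene body, chr7:103826534-103828096. GENCODE places the start of this gene further upstream than RefSeq does. The CACCC box and the GATAA core of *Hbb-bs* lie in the part of its window that is not shown. In the full windows of 250 bases, all 4 motifs were present in *Hba-a1*, *Hba-a2*, *Hbb-bs* and *Hbb-bt*, as in 0.968% of 32851 promoters of this length. The 4 motifs were set by hand, with sites of erythroid factors among them, and were not found by a search. Their presence in globin promoters is therefore a description and not a test. Of the embryonic genes, CCAAT was not found in the window of *Hba-x*, and TATAA was not found in that of *Hbb-y*. Singly, the motifs occurred in 33.8% of all promoters for CCAAT, 52.0% for CACCC, 22.8% for TATAA and 22.6% for GATAA. The promoter table held 6 of the 7 genes, all but *Hbb-bh1*. A match of these letters is not a bound site, and the sequences are those of the reference strain, which is neither parent of these cells. The windows of *Hba-a1* and *Hba-a2* were identical over the 247 bases that align, and those of *Hbb-bs* and *Hbb-bt* matched at 73.3% of 243 aligned bases. GC content was 54.0% in *Hba-a1*, 54.4% in *Hba-a2*, 57.2% in *Hba-x*, 50.8% in *Hbb-bs*, 47.2% in *Hbb-bt* and 42.0% in *Hbb-y*, against a median of 52.4%. The numbers of CpG were 4, 4, 1, 2, 0 and 1 in the same order, against a median of 6. The adult promoters of both clusters thus held the same 4 motifs, and the 3 beta promoters were poorer in GC than the 3 alpha promoters.

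The alpha globin genes replicated early and the beta globin genes late. *Hba-x* (chr11:32276400-32278116), *Hba-a1* (chr11:32283511-32284465) and *Hba-a2* (chr11:32296489-32297298) lie within 20.9 kb and share the bin chr11:32250001-32300000, which had RT 1.97. Scaled early reads were 3.93-fold late reads there. The adult genes *Hbb-bt* (chr7:103812524-103813996) and *Hbb-bs* (chr7:103826534-103828096), with the embryonic *Hbb-bh1* (chr7:103841637-103843164), share the bin chr7:103800001-103850000, which had RT -3.61. The embryonic *Hbb-y* (chr7:103851749-103853216) lies in the next bin, chr7:103850001-103900000, which had RT -3.36. The mean of these 2 bins was -3.48, with late reads 11.2-fold early reads. The *Hbb-y* bin was thus higher by 0.25 log2 than the bin of the adult genes, which is close to the noise SD of such a difference, so an order within the beta cluster was not resolved. Genes that share a bin share its value, and 7 genes are here 3 measurements. Of the 7 gene starts, 3 had RT above 0, against 72.9% of 21666 protein-coding gene starts, and 4 had RT below 0, against 27.1%. By bins, 1 of 3 had RT above 0, against 40.9% of all bins.

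**Figure D1:**
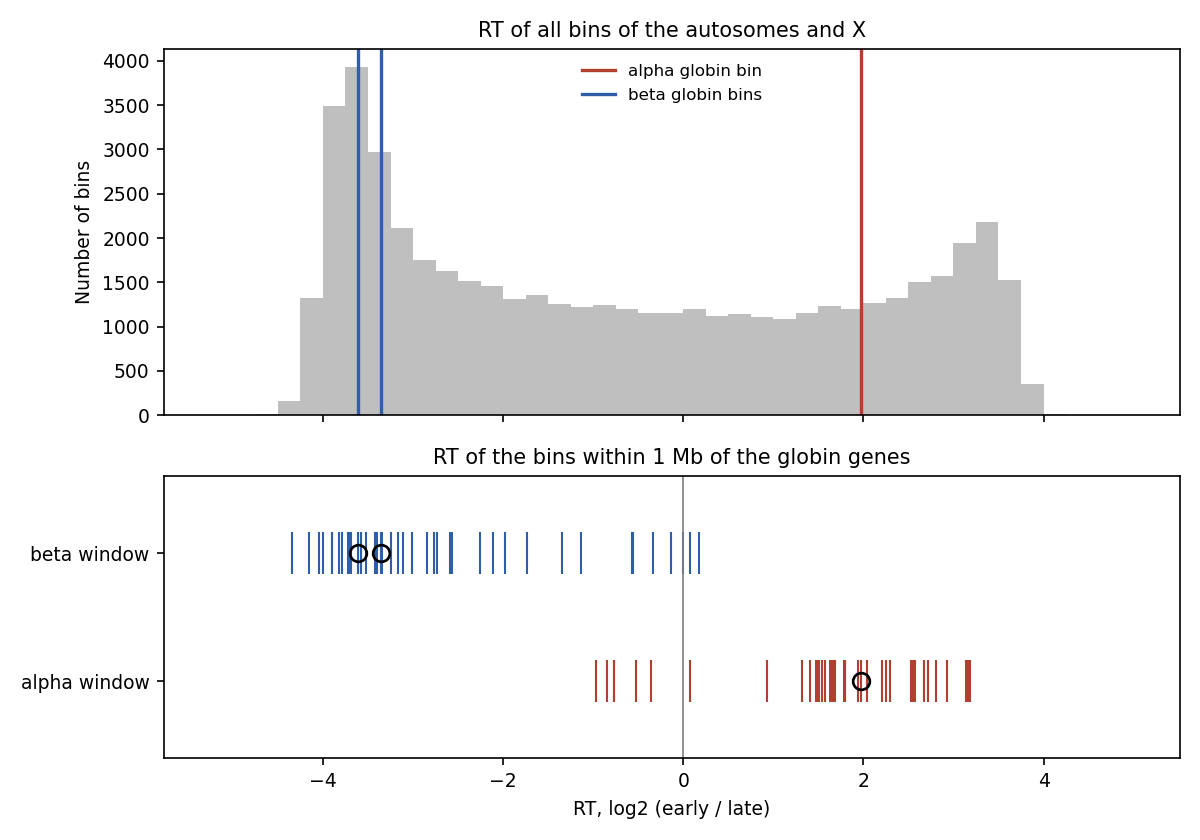
The upper panel gives the number of bins of the autosomes and X (y axis) in intervals of RT (x axis, log2 of early over late reads), with vertical lines at the alpha globin bin (RT 1.97) and the beta globin bins (RT -3.61 and -3.36). The lower panel gives a tick for each bin of the alpha window (41) and the beta window (42), with circles on the bins of the globin genes. Of the alpha ticks, 34 lie above the highest beta tick, and 60.8% of all bins are at or below that beta value.

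The loci differed by 5.46 log2 between the alpha bin and the mean of the beta bins, a 44.0-fold difference in the ratio of early over late reads. This is far above the noise SD of a difference of 2 bins, 0.22. Among all bins of the autosomes and X, 23.0% had a higher RT than the alpha bin, while 17.9% had an RT at or below the mean of the beta bins. The beta bins lay close to the late maximum of the distribution, and the alpha bin lay below the early maximum, as seen in the distribution of RT over all bins. Within its own chromosome the alpha locus was unremarkable. Chromosome 11 had a median RT of 1.40, and 44.7% of its 2376 bins were earlier than the alpha bin. Chromosome 7 had a median RT of -0.45, and 12.9% of its 2816 bins were at or below the mean of the beta bins.

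The other genes of the clusters followed the bins of their neighbors. The theta-like gene *Hbq1b* lies between *Hba-a1* and *Hba-a2* and shares their RT of 1.97. *Hbq1a* starts just past the end of that bin and had RT 2.21, higher by 0.24 log2, about the noise SD of a difference. The beta-like gene *Hbb-bh2* and the pseudogene *Hbb-bh3* share the adult bin, and the pseudogene *Hbb-bh0* shares that of *Hbb-y*. Interpolated between bin centers, RT at the starts of the 7 genes ran from 1.98 (*Hba-x*) to 2.08 (*Hba-a2*) in the alpha cluster and from -3.67 (*Hbb-bt*) to -3.47 (*Hbb-y*) in the beta cluster. Outside the clusters, 3 other globin genes were read, and all had RT above 0, against 72.9% of protein-coding gene starts. *Cygb* (cytoglobin) had RT 3.70, *Mb* (myoglobin of muscle) 3.43 and *Ngb* (neuroglobin) 3.35, each higher than the alpha bin by at least 1 log2.

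The alpha window was early over most of its length. RT was above 0 in 35 of 41 bins (85.4%), against 40.9% of all bins, and above 1 in 33, against 31.9%. The mean was 1.65 ± 1.18 (SD over 41 bins). The locus lay inside an early stretch of 2279 kb between crossings of RT 0 at chr11:31566864, which is 710 kb to the left, and chr11:33845954, which is 1549 kb to the right in *Kcnip1*. To the left, 6 bins had RT below 0, with the lowest, -0.97, at chr11:31400001-31450000, where no protein-coding gene starts. *Stc2* (stanniocalcin 2) starts in the bin before it, at RT -0.84. From *Bod1* (a mitotic regulator) at RT 1.47, RT stayed between 1.47 and 1.79 over *Cpeb4* (1.51), which binds mRNA, and *Nsg2* (1.69), a neuronal vesicle protein. Next to the globin genes, the bin that holds the starts of *Mpg* (a DNA glycosylase), *Rhbdf1* (a rhomboid-like protein), *Snrnp25* (a minor spliceosome protein) and *Il9r* (a cytokine receptor) had RT 2.04. The globin bin differed from it by -0.06 log2, within noise. *Nprl3*, which holds the alpha enhancers, starts in the globin bin itself. Beyond the globin genes RT rose to 3.15 within *Stk10* (a kinase), 288 kb from the middle of the cluster, went down to 1.32 at 638 kb and rose again to 3.19 at *Tlx3* (a homeobox factor), the highest value of the window. The globin genes therefore sat partway up a gentle slope, 1.57 log2 per Mb over 5 bins, and not at a maximum. Of the 40 other bins of the window, 24 were later and 16 earlier than the globin bin. On the side of *Stc2* the 20 flanking bins had a mean of 0.85 ± 1.12 (SD over bins), and on that of *Tlx3* the mean was 2.43 ± 0.60.

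The beta window was late over nearly all of its length. RT was below 0 in 40 of 42 bins, against 59.1% of all bins, and below -3 in 24, against 27.4%. The mean was -2.68 ± 1.35 (SD over 42 bins). The late stretch that holds the locus ran for 1552 kb, from chr7:102655242, which is 1157 kb to the left of the genes, to chr7:104207104, which is 354 kb to the right. The 20 bins to the left held between -4.15 and -2.25, with a mean of -3.45 ± 0.50 (SD over bins). The 20 bins to the right ranged from -4.34 to 0.18, with a mean of -1.83 ± 1.48. The globin genes lay near where the late stretch on the left turned into a rise. From the bin of *Olfr67*, *Olfr68*, *Olfr69* and *Olfr630* just left of the cluster, at RT -3.90, RT went up in each of 10 successive bins, in steps of 0.10 to 0.79, by 4.07 log2 over 500 kb, or 8.15 log2 per Mb. The steps into, between and out of the 2 globin bins were 0.29, 0.25 and 0.25 log2. They were close to the noise SD of a difference, 0.22, so the bin where the rise began was not resolved. At the 2 globin bins the slope, taken over 5 bins, averaged 5.13 log2 per Mb, above the 1.57 at the alpha bin. The rise passed RT -1 in *Olfr643*, 244 kb from the cluster, and ended at *Trim5*, with RT 0.18, the highest value of the window. *Trim6* and *Trim34a* had RT 0.08. The Trim genes encode ubiquitin ligases, several with antiviral roles, and they formed a peak near RT 0 with lower RT on either side. *Trim12a* had RT -0.01, *Trim30a* -1.13 and *Trim30d* -1.73, and at *Usp17la* (a deubiquitinase) the window reached its lowest RT, -4.34. Only 2 bins of the peak had RT above 0, both within about 1 noise SD of it (0.08 and 0.18), so the distance of 354 kb rests on these bins. After a running median over 5 bins they fell below 0, and the nearest crossing was then 1157 kb away. The scatter of bins about their neighbors was higher in the beta window, with an SD of 0.21, than in the alpha window, with 0.11. In the genome it was 0.17 for flat bins with RT from -4 to -3 and 0.15 for those from 1.5 to 2.5. The window values also include bins on steep slopes and at peaks, so the 2 measures are not alike.

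**Figure D2:**
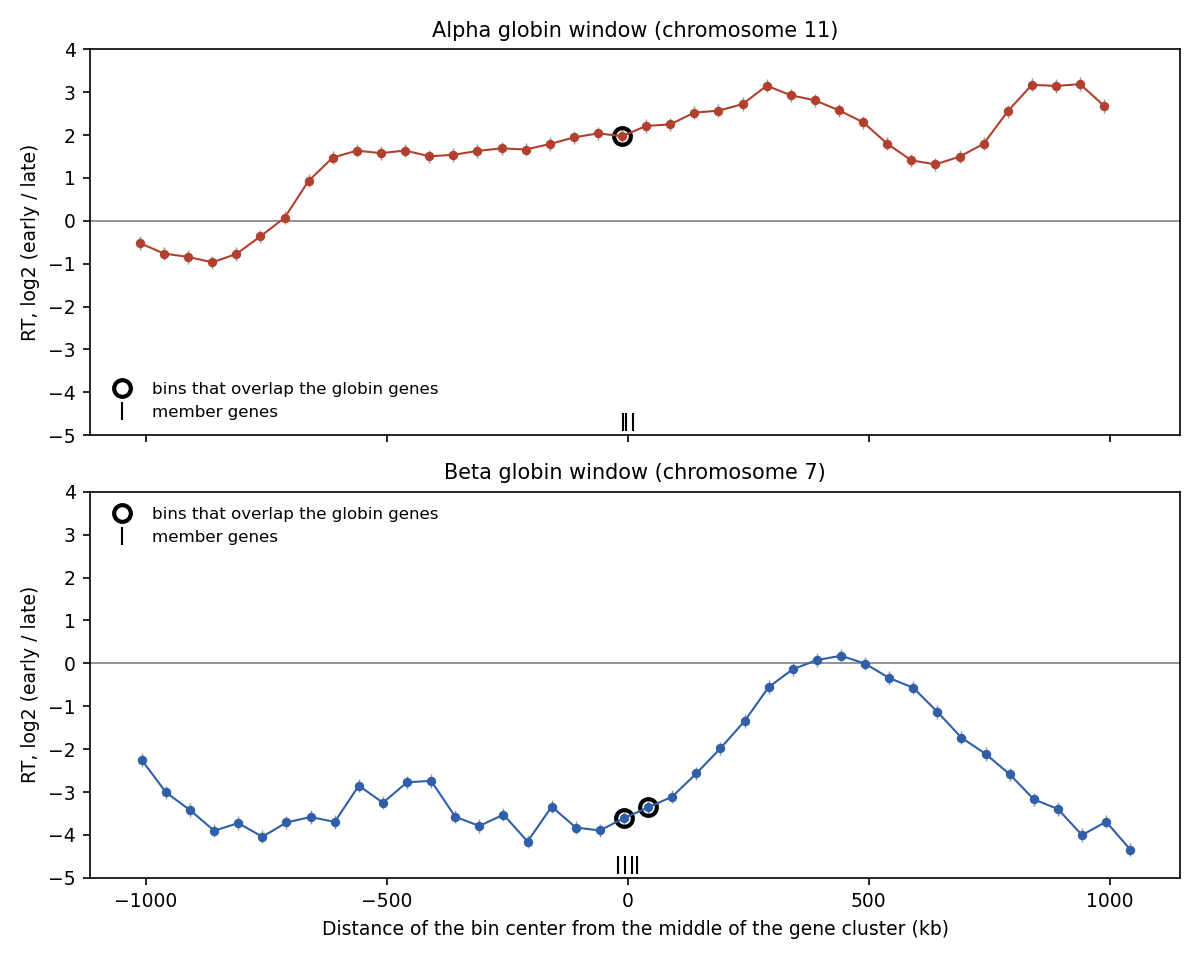
RT (y axis, log2 of early over late reads) of each 50 kb bin of the alpha window (upper panel) and the beta window (lower panel) is plotted against the distance of the bin center from the middle of the gene cluster (x axis, kb), with bars of 1 noise SD (0.16), circles on the bins of the globin genes and ticks for the genes. The alpha bin (1.97) lies on an early slope, and the beta bins (-3.61 and -3.36) lie near the foot of a rise to 0.18 at the Trim genes.

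Over the whole windows, the mean RT of the loci differed by 4.32 log2. The values overlapped only at their edges. In the alpha window 34 of 41 bins were above the highest bin of the beta window. In the beta window 35 of 42 bins were below the lowest of the alpha window. Of all bins, 60.8% were at or below that highest beta value, and 50.2% were at or below that lowest alpha value.

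The windows also differed in what they contain. The alpha bin had a GC content of 46.3%, at or above that of 85.5% of all bins, and the beta bins had 39.8% and 37.8%, at or above those of 36.9% and 17.2% of all bins. Over the windows the mean GC content was 45.5% for alpha and 39.1% for beta, with a median of 41.2% over all bins. CpG occurred 9.81 times per kb in the alpha window and 5.85 times in the beta window, against 8.35 in all bins. Soft-masked repeats took 25.6% of the alpha bin, 45.1% of the bin of the adult beta genes and 26.8% of the *Hbb-y* bin, and on average 26.7% of the alpha window and 44.7% of the beta window. Gene density ran the other way. The beta window held 112 starts of protein-coding genes, 2.67 per bin, while the alpha window held 25, 0.61 per bin, and the mean over all bins was 0.42. A gene start was absent from 25 of 41 bins of the alpha window and from 1 of 42 of the beta window, against 72.0% of all bins. The 5 starts in the alpha bin and the 7 in the beta bins include those of the globin genes.

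**Figure D3:**
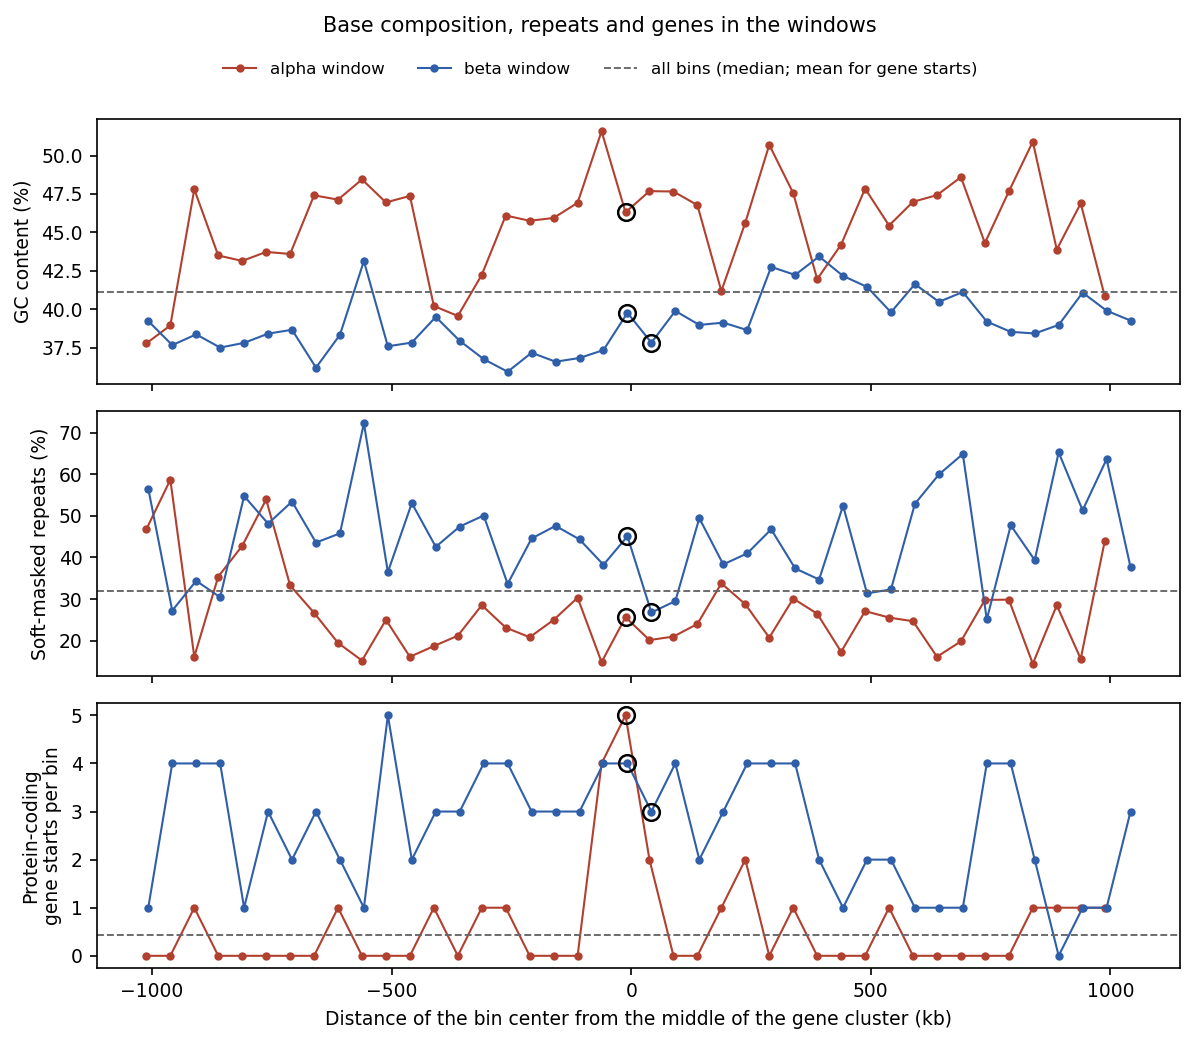
GC content (%), share of soft-masked repeats (%) and number of protein-coding gene starts of each bin are plotted against the distance from the middle of the gene cluster (x axis, kb), for the alpha and the beta window, with circles on the bins of the globin genes and dashed lines at the median of all bins (for gene starts, the mean). The beta window is poorer in GC (mean 39.1% against 45.5%) and richer in gene starts (112 against 25) than the alpha window.

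Most gene starts of the beta window, 87 of 112, belong to olfactory receptor (*Olfr*) genes, which surround the cluster on both sides, and none of the 87 had RT above 0. Over the genome 202 of 1135 *Olfr* gene starts (17.8%) did, and the median RT of those in the beta window, -3.36, was below that of all *Olfr* genes, -2.13. Neighboring receptors share bins, so these counts are not independent measurements. Late bins were uncommon among those rich in genes. Of 1661 bins with 3 or more gene starts, 105 (6.32%) had RT below -3, against 27.4% of all bins. Among the 190 of these gene-rich bins with an *Olfr* gene start the share was 36.8%, and among the 1471 without one it was 2.38%. In the alpha window 24 of 25 gene starts had RT above 0, against 72.9% of protein-coding gene starts, with *Stc2* as the exception. Several of these starts also share bins.

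To set the globin genes beside the genes they act with in red cells, RT was read at the starts of a list of 13 regulators of the globin genes and a list of 21 erythroid genes. All 13 regulators had RT above 0, against 72.9% of protein-coding genes, with a median of 2.99 against 2.27. *Klf1*, which binds the CACCC element, had RT 3.57, *Nfe2*, which acts at the beta locus control region, 3.49, and *Gata1*, the main erythroid GATA factor, 3.25. *Gfi1b*, a repressor that acts with it, had 3.32. The partners *Ldb1*, *Zfpm1*, *Lmo2* and *Tal1* had 3.18, 2.99, 2.71 and 1.83. *Atrx*, a chromatin remodeler, had 2.93. Among the factors known to hold down embryonic or fetal globin genes, *Zbtb7a* had RT 3.63, *Sox6* 2.44, *Myb* 1.99 and *Bcl11a* 0.33, the lowest of the list. When averaged over the gene body, *Sox6* had RT -1.10 and *Bcl11a* -0.15, so that 11 of 13 were then above 0. Even the lowest of the list was above the beta globin bins.

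The erythroid genes were spread more widely. RT could be read for 20 of the 21, all but *Ahsp*, of which 15 had RT above 0 (75.0%, against 72.9%) and 5 below, with a median of 3.07. Of the enzymes of heme synthesis, *Ppox* had RT 3.48, *Urod* 3.23, *Alad* 2.97, *Uros* 2.12 and *Fech* 2.05, whereas *Alas2*, the erythroid enzyme of the first step, had -0.19 (0.01 over the gene body) and *Cpox* -1.59. Of the red cell membrane genes, *Slc4a1* (band 3) had RT 3.63, *Epb41* 3.49, *Epb42* 3.22, *Sptb* (beta spectrin) 2.98 and *Ank1* (ankyrin) 1.74. Blood group proteins were found at both ends, with *Ermap* at 3.53, *Rhd* at 3.15, *Rhag* at -1.56 and *Kel* at -3.04. *Epor*, the erythropoietin receptor, had 3.48. For iron uptake, *Tfrc* and *Slc11a2* had 3.48 and 3.28, and *Slc25a37*, the mitochondrial carrier, had -0.64. *Kel* was the latest gene of the list, and the beta globin genes were later than each of the 13 regulators and 20 erythroid genes read here. The alpha globin bin, at 1.97, was below the median of all protein-coding gene starts, 2.27.

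**Figure D4:**
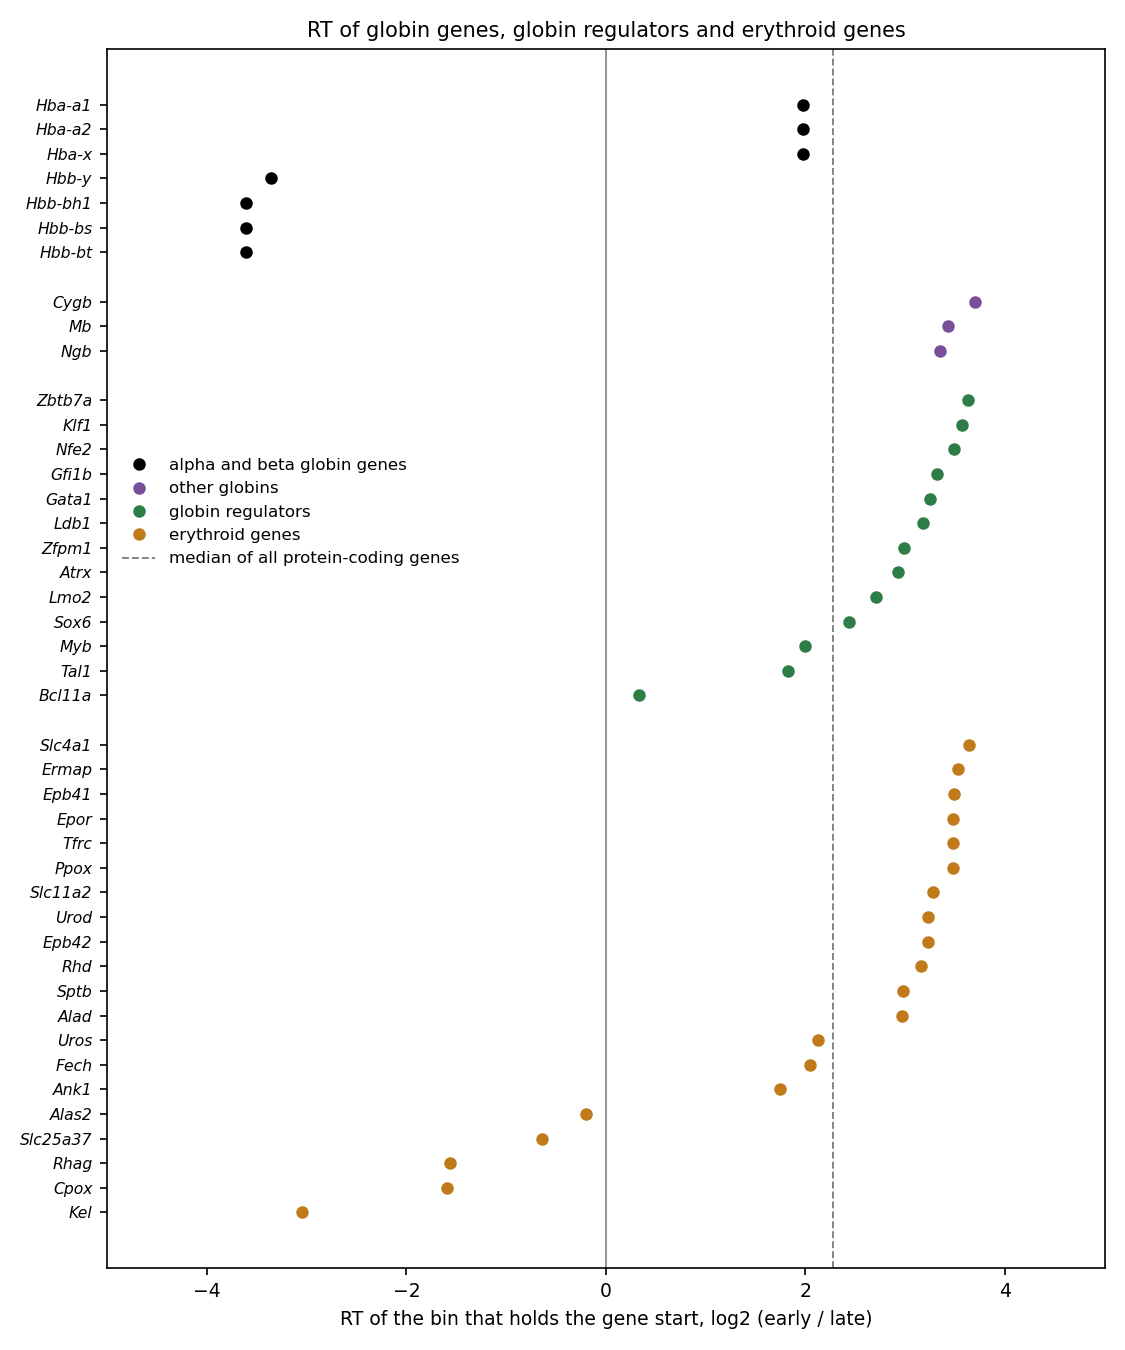
RT of the bin that holds the gene start (x axis, log2 of early over late reads) is plotted, a point per gene (y axis). Shown are the 7 alpha and beta globin genes, 3 other globin genes, the globin regulators and the erythroid genes. A dashed line marks the median of all protein-coding genes (2.27). The beta globin genes (-3.61 and -3.36) lie to the left of every other point, and the regulators lie between 0.33 and 3.63.

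The genes whose surroundings were most like each locus were found by the root mean square (RMS) difference between 41 bins of RT centered on the gene start and those centered on the cluster, without genes within 5 Mb. Over 19862 genes, the alpha profile was closest to that at *F7* and *F10*, which encode coagulation factors and share a bin on chromosome 8, with an RMS difference of 0.50 log2 and a Pearson's correlation of 0.96 across 41 bins. *Fam192a* and *Rspry1* followed, tied at 0.58. At the gene starts themselves, RT was 3.05 for *F7* and *F10* and 1.52 for *Fam192a* and *Rspry1*, against 1.97 for the alpha bin. Over 19658 genes, the beta profile was closest to that at *Zbbx* on chromosome 3, with 0.50 log2 and a correlation of 0.95. The olfactory receptors *Olfr1106*, *Olfr1107* and *Olfr1109*, which share a bin on chromosome 2, followed at 0.60. These likenesses describe the shape of a single profile across neighboring bins that are not independent.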

How the data were processed

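Population-based replication timing was measured by Repli-seq in 2 early and 2 late S-phase libraries of F121-9 mESCs. The authors deposited 1 log2 value per 50 kb bin, the log2 of early over late reads scaled to RPM. Per the labels, the submitters' processing notes name mm10, Bowtie2, SAMtools and bedtools. The study's methods describe mapping with default settings, a minimum mapping quality and removal of PCR duplicates, without saying whether all of this applied to this profile. Versions, any smoothing and how replicates were combined are not given in the sources used here. The deposited position was read as the start of the bin. By that reading 5 bins with a value lie where mm10 has no assembled sequence, against 69 or 64 when displaced by 1 bin. Positions are written from 1. The depth of the libraries is unknown, and reads from near-identical copies such as *Hba-a1* and *Hba-a2* may be placed at either or be filtered.

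The profile was taken over 19 autosomes and X, and 274 other bins, of Y and the mitochondrial genome, were left out. GC content, CpG, soft-masked repeats (GRCm38.p6) and gene starts (GENCODE vM21) were counted per bin. The noise SD came from the median absolute deviation of bins from their neighbors. Crossings were interpolated between bin centers, and gene lists were read at gene starts. Genes were named if they were members, other *Hb* genes of the clusters, on the lists, beside the members, at a crossing or an extreme of RT in a window, or among the 3 most like profiles. *Stc2*, *Bod1*, *Cpeb4*, *Nsg2*, *Stk10*, the Trim genes other than *Trim5* and *Trim30a*, and genes tied in likeness were named after their values were seen. A further 3 genes first put on the erythroid list are not reported here, for a reason unrelated to their RT, and are in none of its counts. The members and lists were chosen with earlier results of these data known. Alternatives covered smoothing, bin displacement, interpolation, window size, the cut for early, the bins ranked against and the reading of genes. The steps were tested on simulated profiles. Python 3.11.15 was used with numpy 2.4.6, pandas 2.3.3, scipy 1.17.1 and matplotlib 3.10.9.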

Additional observations from a re-analysis of the deposited data

How the results depend on the processing

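No paired analysis was possible because each bin holds 1 RT for all libraries together, so the replicate block and leaving out a replicate were not run. Of 55 alternatives over 14 results, 36 moved the result by less than a set limit. That limit was the noise SD, the exact 95% binomial interval of a share of bins, 1 bin of distance or 1.5 times a count. None of these covers the RT percentiles, whose limit is not given here. The percentiles counted as moved only when ranked among bins of the same chromosome. The binomial interval treats neighboring bins as independent, which they are not, so it serves only as a yardstick. The other 19 alternatives moved the result further. No RT value, window mean or difference reversed its sign. Shares, percentiles, distances and counts have no sign to reverse.

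Bins displaced to the left gave RT 2.21 for the alpha and -3.23 for the beta bins, and bins displaced to the right gave -3.75 for beta and a difference between the loci of 5.79. With 500 kb on each side the mean RT of the windows was 2.14 (alpha) and -2.35 (beta), and 100% of the alpha bins had RT above 0. With 2 Mb the means were 1.38 and -1.19, their difference was 2.56, and 25.6% of the beta bins had RT above 0. After a running median over 5 bins 0% of the beta window had RT above 0, and its genes lay 1157 kb from the nearest crossing. With the cut at the median RT of all bins, 100% of the alpha and 16.7% of the beta window counted as early, and the nearest crossings lay 1702 kb and 245 kb away. Among bins of the same chromosome the percentiles were 55.3 (alpha) and 12.9 (beta). Windows of 1 Mb on each side already pass a crossing of RT 0, 710 kb from the alpha and 354 kb from the beta genes. Larger windows reach further. Under the running median, the 2 beta bins with RT above 0 fell below it. The cause of the other shifts was not tested. Fewer reads in the minor fraction limit the precision of extreme RT by an amount that cannot be given without depth.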

Other observations

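Alpha globin pseudogenes outside the clusters lay at both ends of the profile. The processed copy *Hba-ps3* (chr15:56171988-56172389) had RT -3.49, within the range of the beta globin bins, and the unprocessed copy *Hba-ps4* (chr17:26286363-26287061) had RT 3.47, higher than the alpha cluster itself by more than 1 log2. They were chosen after their values were seen, and each value is that of a single bin.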
